A study of Mus musculus with 12 samples.

Results

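The muscle miRNAs mmu-miR-1a-3p, mmu-miR-206-3p, mmu-miR-133a-3p and mmu-miR-133b-3p were followed in each small RNA library of the mouse prefrontal cortex (PFC). They were chosen by name, as mature miRNAs with these identifiers, and are 4 of the 1422 miRNAs that had a count in any library. These miRNAs are known as myomiRs. In heart and skeletal muscle a miR-1 or miR-206 hairpin is made together with a miR-133 hairpin under myogenic factors such as MyoD, SRF and MEF2, and miR-1 and miR-206 favour the differentiation of myoblasts while miR-133 favours their proliferation. In nervous tissue they are scarce, although miR-206 is known to repress the messenger RNA of the neurotrophin BDNF, and miR-133b has been studied in dopaminergic neurons of the midbrain.

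Small RNA of 18 to 30 nt was sequenced from the medial PFC of adult male C57BL/6 mice, excised 2 h after a test of conditioned place preference (CPP), which scores the time a mouse spends on the drug-paired side of a chamber. The SS group received saline and the CS group cocaine during training, while the MS group received L-methionine and the MC group both agents. L-methionine, a methyl donor, was given under the skin at 1 g/kg per injection on 10 days. There were 3 libraries per group, named by the replicate numbers of their labels, and each was made from the pooled RNA of a pair of animals, so a library is not a single mouse. The comparisons asked whether the levels of the muscle miRNAs differed with cocaine (CS vs SS), with methionine (MS vs SS), with methionine given on top of cocaine (MC vs CS) and with cocaine given on top of methionine (MC vs MS). Sequencing depth, as the total count in units of 1000000, was 8.23, 10.0 and 11.1 in SS replicates 12, 13 and 14, and 8.47, 8.71 and 8.18 in CS replicates 8, 9 and 10. It was 10.97, 10.0 and 10.4 in MS replicates 3, 4 and 23, and 7.77, 7.97 and 10.9 in MC replicates 16, 17 and 20. Levels are given as counts per 1000000 of the library total (CPM). Mature miRNAs are of similar length and are set side by side on this scale, but how evenly each was captured was not tested. At these depths 3 counts correspond to between 0.271 and 0.386 CPM, and intervals and floors cover counting error only.

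The tissue label was checked against miRNAs of neural cells. miR-124-3p, which is abundant in neurons, lay between 30002 and 176336 CPM (median 109602), and it was the most abundant miRNA by median rank. It was at 165273, 176336 and 70274 CPM in SS replicates 12, 13 and 14, at 30002, 148929 and 153965 CPM in CS replicates 8, 9 and 10, at 168180, 35552 and 171607 CPM in MS replicates 3, 4 and 23 and at 46349, 38722 and 33188 CPM in MC replicates 16, 17 and 20, so that all 3 MC libraries were under the median. MC replicate 16 stood apart from the other libraries. Its median correlation with the other 11 libraries over the 780 tested miRNAs was 0.941, while that of each other library was at least 0.973. It held the lowest CPM of the 12 libraries for 307 of the 780 miRNAs (39.4%) and the highest for 161 (20.6%). CS replicate 8 held the highest for 171 (21.9%) and the lowest for 12. Values of the muscle miRNAs that rest on MC replicate 16 are therefore given with and without it. Counts over the lists of markers of other cell types use all 12 libraries.

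Within the muscle miRNAs, miR-133a-3p was by far the most abundant. Its median over the 12 libraries was 36.4 CPM (24.8 to 82.3), against 1.52 CPM (0.257 to 3.80) for miR-1a-3p, 1.34 CPM (0.547 to 3.22) for miR-206-3p and 0.109 CPM (0 to 0.459) for miR-133b-3p. The median of miR-133a-3p was 23.9 times that of miR-1a-3p, and the ranges of miR-133a-3p and of each other member did not overlap. The ranges of miR-1a-3p and miR-206-3p overlapped almost entirely, and their median ranks among the miRNAs of a library were 516.5 and 558. The median rank of miR-133a-3p was 243. Together the 4 miRNAs held between 238 and 877 counts in a library, or 0.00399% to 0.0147% of its miRNA counts. miR-133a-3p supplied between 89.3% and 94.6% of these counts. In bulk tissue such as this, fewer cells of a type and less RNA per cell cannot be told apart. miR-133a-3p, miR-1a-3p and miR-206-3p had at least 5 counts in at least 3 libraries and were tested for differences between groups, while miR-133b-3p did not reach this count and was not tested.

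**Figure D1:**
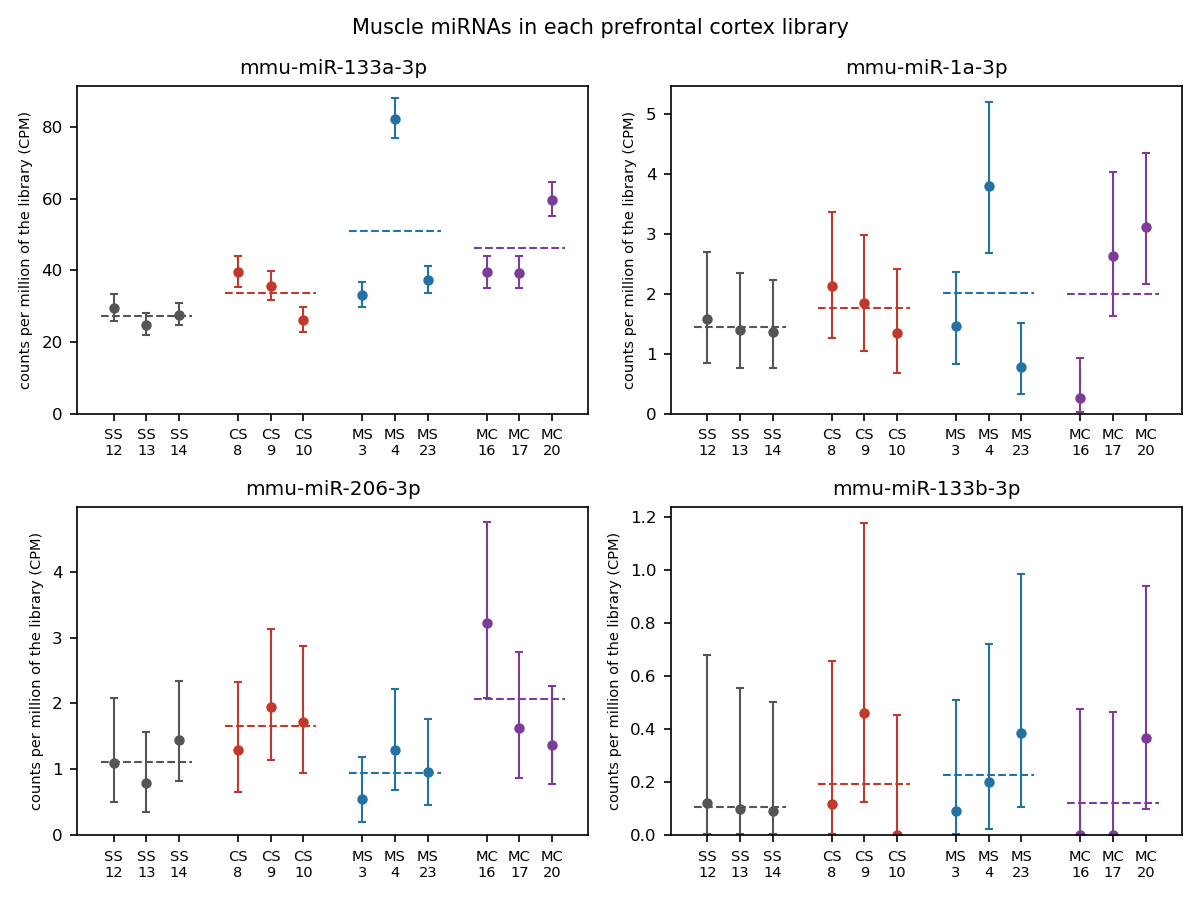
Level of each muscle miRNA in the 12 libraries, in CPM, by group and replicate number, where bars are exact 95% Clopper-Pearson intervals of the counting error and dashed lines are group means. For miR-133a-3p the 3 SS libraries sit between 24.8 and 29.4 CPM and MS replicate 4 reaches 82.3 CPM, while the other miRNAs stay under 4 CPM and their intervals are wide.

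miR-1a-3p is the main product of the miR-1 genes of heart and skeletal muscle. It was counted 13, 14 and 15 times in SS replicates 12, 13 and 14, which is 1.58, 1.39 and 1.35 CPM. In CS replicates 8, 9 and 10 it was counted 18, 16 and 11 times (2.12, 1.84 and 1.34 CPM). In MS replicates 3, 4 and 23 it was counted 16, 38 and 8 times (1.46, 3.80 and 0.770 CPM), and in MC replicates 16, 17 and 20 it was counted 2, 21 and 34 times (0.257, 2.63 and 3.12 CPM). The saline libraries were close together, whereas both methionine groups held a library above and a library below every SS and CS library, and all groups overlapped. The highest library, MS replicate 4, had an exact 95% interval of 2.69 to 5.21 CPM, and the lowest, MC replicate 16, one of 0.0312 to 0.930 CPM. In order, the group means were 2.01 ± 1.59 CPM in MS (SD, n = 3 libraries), 2.00 ± 1.53 CPM in MC, 1.77 ± 0.394 CPM in CS and 1.44 ± 0.120 CPM in SS. All groups in this order overlapped. The MC mean was 2.87 CPM without MC replicate 16, and the MS mean was 1.11 CPM without MS replicate 4, below that of SS.

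miR-206-3p shares its seed with miR-1 and is known from skeletal muscle, where it takes part in the repair of nerve and muscle contacts. It was counted 9, 8 and 16 times in SS replicates 12, 13 and 14 (1.09, 0.797 and 1.44 CPM). In CS replicates 8, 9 and 10 the counts were 11, 17 and 14 (1.30, 1.95 and 1.71 CPM). In MS replicates 3, 4 and 23 they were 6, 13 and 10 (0.547, 1.30 and 0.962 CPM), and in MC replicates 16, 17 and 20 they were 25, 13 and 15 (3.22, 1.63 and 1.37 CPM). The MC libraries all lay above the MS libraries, as for 44 of 780 tested miRNAs (5.64%, with 0% called in MC vs MS). The gap between MC replicate 20 and MS replicate 4 was narrow, and every other pair of groups overlapped. The gap was also present with TMM factors applied, the factors by which the tests scale each library, at 1.17 against 1.09 CPM. On that scale 34 of 780 tested miRNAs (4.36%) had all MC libraries above all MS libraries. The library with the most miR-206-3p, MC replicate 16, was the one with the least miR-1a-3p. The order of the means was MC with 2.07 ± 0.999 CPM (SD, n = 3 libraries), CS with 1.65 ± 0.331 CPM, SS with 1.11 ± 0.324 CPM and MS with 0.936 ± 0.376 CPM. Neighbours in this order overlapped, and without MC replicate 16 the MC mean was 1.502 CPM, below that of CS.

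miR-133a-3p is the main miR-133 of heart and skeletal muscle, where it restrains SRF and the smooth muscle gene program. It was counted 242, 249 and 306 times in SS replicates 12, 13 and 14, which is 29.4, 24.8 and 27.6 CPM. In CS replicates 8, 9 and 10 it was counted 335, 309 and 213 times (39.5, 35.5 and 26.0 CPM). In MS replicates 3, 4 and 23 it was counted 362, 824 and 387 times (33.0, 82.3 and 37.2 CPM), and in MC replicates 16, 17 and 20 it was counted 306, 313 and 652 times (39.4, 39.3 and 59.7 CPM). All MS libraries lay above all SS libraries on CPM, as for 146 of 780 tested miRNAs (18.7%, with 0% called in MS vs SS). The CS libraries overlapped with each other group. The MC libraries also lay above all SS libraries, on CPM as for 74 of 780 tested miRNAs (9.49%) and with TMM factors as for 46 (5.90%), in a pair of groups that was not tested. The MS and SS libraries overlapped once the TMM factors of the tests were applied, with 32.2 CPM in MS replicate 3 and 32.5 CPM in SS replicate 12. On CPM MS replicate 4 and MC replicate 20 were the highest, and their exact 95% intervals, 76.8 to 88.1 CPM and 55.2 to 64.5 CPM, overlapped with no other library and not with each other. With TMM factors MS replicate 4 was again the highest at 69.3 CPM, but MC replicate 16, at 58.4 CPM, stood above MC replicate 20, at 50.8 CPM. The order of the means was MS with 50.9 ± 27.3 CPM (SD, n = 3 libraries), MC with 46.1 ± 11.8 CPM, CS with 33.7 ± 6.93 CPM and SS with 27.3 ± 2.32 CPM. Neighbours in this order overlapped. Without MC replicate 16 the MC mean was 49.5 CPM, and without MS replicate 4 the MS mean was 35.1 CPM, below that of MC.

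miR-133b-3p is made beside miR-206 and has nearly the same sequence as miR-133a-3p, so how reads were divided between the 2 depends on the counting, whose rule for such reads is not given in the sources used here. It was counted once in each SS library. The counts were 1, 4 and 0 in CS replicates 8, 9 and 10, 1, 2 and 4 in MS replicates 3, 4 and 23, and 0, 0 and 4 in MC replicates 16, 17 and 20. These counts lay at or close to the floor in every library, and no difference between groups was detectable at this depth. The libraries without a count allow levels of up to 0.367 CPM in CS replicate 10, 0.386 CPM in MC replicate 16 and 0.376 CPM in MC replicate 17, by the limit of 3 counts. The highest level, in CS replicate 9, was 0.459 CPM with an exact 95% interval of 0.125 to 1.18 CPM.

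The mature sequences are shown because the members form 2 seed families. Of the 4 members, 2 were matched in the RefSeq miRNA table (build GRCm38.p6), and capitals mark the seed, bases 2 to 8.
mmu-miR-206-3p: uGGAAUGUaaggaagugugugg
mmu-miR-133b-3p: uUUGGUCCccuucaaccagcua
mmu-miR-1a-3p and mmu-miR-133a-3p had no mature entry in that table. The sequence of miR-206-3p lies at chr1:20679055-20679076 on the plus strand and that of miR-133b-3p at chr1:20682834-20682855, also on the plus strand. Their hairpins Mir206 and Mir133b are 3686 bp apart within the long noncoding RNA gene Gm28653 (GENCODE M21). Mir133b lies inside an exon of both annotated transcripts that overlap it, and Mir206 runs across the start of an exon of an annotated transcript. The hairpins Mir1a-1, at chr2:180389048-180389124, and Mir133a-2, at chr2:180398379-180398482, are 9254 bp apart on the plus strand. Other copies of the miR-1a and miR-133a hairpins give the same mature miRNAs, so their counts cannot be assigned to a locus.

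With cocaine alone, the CS and SS libraries of each muscle miRNA overlapped. In CS vs SS, log2 fold changes were 0.031 for miR-133a-3p (standard error 0.32, adjusted p = 0.995), 0.019 for miR-1a-3p (standard error 0.61, adjusted p = 0.998) and 0.35 for miR-206-3p (standard error 0.56, adjusted p = 0.994). The value of miR-206-3p was 0.17 without SS replicate 13 and -0.12 with the library sets described below as a covariate. edgeR's quasi-likelihood test called 0 of the 3 tested members and 0 of 780 miRNAs (0%). An unadjusted p under 0.05 was found for 22 miRNAs and for 0 members, and DESeq2 also called 0 miRNAs. The median log2 fold change was 0.031 over the members and 0.035 over all tested miRNAs.

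With methionine alone, miR-133a-3p was the member with the largest difference over all libraries, a rank that was lost without MS replicate 4. Its MS vs SS log2 fold change was 0.61 (standard error 0.32, unadjusted p = 0.0828, adjusted p = 0.587). Its 3 MS libraries lay above every SS library on CPM, as did those of 146 of the 780 tested miRNAs (18.7%, with 0% called), but not with TMM factors, the scale of this fold change, where 100 of 780 did (12.8%). The size of this difference rested on MS replicate 4, without which it was 0.20. The log2 fold change was 0.17 for miR-1a-3p (standard error 0.60, adjusted p = 0.974), which became -0.53 without MS replicate 4, and -0.50 for miR-206-3p (standard error 0.57, adjusted p = 0.848), which became -0.70 without that library. The edgeR test called 0 of the 3 tested members and 0 of 780 miRNAs, with an unadjusted p under 0.05 for 75 miRNAs and 0 members, while DESeq2 called 9 miRNAs and 0 members. The median log2 fold change was 0.17 over the members and -0.032 over all tested miRNAs.

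When methionine was given on top of cocaine, the MC vs CS log2 fold change was 0.62 for miR-133a-3p (standard error 0.32, unadjusted p = 0.0817, adjusted p = 0.577). Without MC replicate 16 it was 0.47. The MC and CS libraries of miR-133a-3p overlapped on both scales. On CPM, CS replicate 8 had the same level as MC replicates 16 and 17 within counting error. With TMM factors CS replicate 8 was at 31.3 CPM and MC replicate 16 at 58.4 CPM, and the overlap was that of CS replicate 9, at 34.0 CPM, with MC replicate 17, at 33.5 CPM. For miR-206-3p the value was 0.58 (standard error 0.55, adjusted p = 0.651), and it was -0.27 without MC replicate 16. For miR-1a-3p it was 0.17 (standard error 0.60, adjusted p = 0.928), 0.62 without MC replicate 16 and -0.22 without MC replicate 20. The edgeR test called 0 of the 3 tested members and 0 of 780 miRNAs (0%), with an unadjusted p under 0.05 for 58 miRNAs and 0 members, and DESeq2 called 0 miRNAs. The members' median log2 fold change was 0.58, and that of all tested miRNAs 0.079.

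When cocaine was given on top of methionine, miR-206-3p was the member with the largest difference. Its MC vs MS log2 fold change was 1.42 (standard error 0.57, unadjusted p = 0.0280), and it did not pass the threshold after adjustment (adjusted p = 0.561). Its 3 MC libraries lay above every MS library on CPM, as did those of 44 of the 780 tested miRNAs (5.64%), and with TMM factors, as did those of 34 (4.36%). Without MC replicate 16 the log2 fold change was 0.55, close to the 0.43 of miR-1a-3p, and with library set as a covariate it was 0.65. For miR-133a-3p it was 0.034 (standard error 0.32, adjusted p = 0.978), and it was 0.017 for miR-1a-3p (standard error 0.59, adjusted p = 0.994). The edgeR test called 0 of the 3 tested members and 0 of 780 miRNAs (0%). The unadjusted p was under 0.05 for 65 miRNAs, of which 1 was a member, and DESeq2 called 0 miRNAs. The median was 0.034 over the members and 0.047 over all tested miRNAs. Each group enters more than 1 of these comparisons, so they share libraries and are not independent of each other.

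The interaction asked whether the difference with cocaine depended on methionine. It was 1.08 on the log2 scale for miR-206-3p (standard error 0.79, unadjusted p = 0.202, adjusted p = 0.810) and 0.15 without MC replicate 16. It was 0.00298 for miR-133a-3p (standard error 0.45, adjusted p = 1.00) and -0.00149 for miR-1a-3p (standard error 0.98, adjusted p = 1.00). For the latter pair, leaving out single libraries gave values on both sides of 0. The edgeR test called 0 members and 0 of 780 miRNAs (0%), with an unadjusted p under 0.05 for 34 miRNAs and 0 members, and DESeq2 called 0.

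Both methionine groups and both cocaine groups were then pooled, a comparison added after seeing the values. In the 6 libraries with methionine, miR-133a-3p had a lowest, median and highest level of 33.0, 39.3 and 82.3 CPM, and in the 6 libraries without it 24.8, 28.5 and 39.5 CPM. The ranges overlapped through CS replicates 8 and 9, and 4 of the 6 libraries without methionine lay below every library with it. With TMM factors the number was again 4 of 6, and the overlap was through SS replicate 12 and CS replicate 9. The log2 fold change was 0.61 (standard error 0.23, with unadjusted p = 0.0203, adjusted p = 0.275), and 0.41 without MS replicate 4. For cocaine, miR-206-3p lay between 1.30 and 3.22 CPM (median 1.67) in the 6 libraries with cocaine and between 0.547 and 1.44 CPM (median 1.03) in the 6 without it. The ranges overlapped, with 4 of the 6 cocaine libraries above every library without cocaine on CPM and 3 of the 6 with TMM factors. For neither agent was it counted how many of the 780 tested miRNAs lay apart to this extent, so these numbers have no background. The log2 fold change of miR-206-3p with cocaine pooled was 0.89 (standard error 0.40, with unadjusted p = 0.0471, adjusted p = 0.904), 0.47 without MC replicate 16 and 0.27 with library set as a covariate. The remaining values turned direction with 1 library left out. With methionine miR-1a-3p was at 0.17 (-0.18 to 0.43) and miR-206-3p at 0.043 (-0.35 to 0.22), and with cocaine miR-133a-3p was at 0.033 (-0.069 to 0.24) and miR-1a-3p at 0.018 (-0.17 to 0.37). The edgeR test called 0 of 780 miRNAs (0%) for methionine, with an unadjusted p under 0.05 for 103, of which 1 was a member, and DESeq2 called 7 miRNAs and 0 members. For cocaine it called 0 of 780 (0%), with an unadjusted p under 0.05 for 25, of which 1 was a member, and DESeq2 called 0.

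The scaling of the libraries bears on these values. Without TMM factors the median log2 fold change of all tested miRNAs moved by 0.27 in CS vs SS, by 0.25 in MS vs SS, by 0.10 for cocaine and by -0.33 in the interaction, and TMM factors from all small RNAs moved it by 0.11 in MS vs SS, by -0.14 in MC vs MS and by -0.15 in the interaction. Relative to that median, miR-133a-3p in MS vs SS was 0.64 as reported, 0.65 with TMM factors from all small RNAs, 0.68 without TMM factors and 0.64 with DESeq2. For miR-206-3p in MC vs MS the corresponding values were 1.38, 1.19, 1.15 and 1.40. The TMM factor of MC replicate 16 was 0.675, the lowest of the 12 libraries, and that of CS replicate 8 was 1.26, the highest.

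The libraries were grouped into 3 sets by the profiles of 202 miRNA precursor families, with those of miR-1 and miR-133 left out. The sets crossed the treatment groups, although no batch is named in the labels. CS replicates 8 and 9 fell in set A together with SS replicate 12. MC replicates 16 and 17 fell in set C together with CS replicate 10, and the remaining 6 libraries formed set B. The 3 libraries of set C held 1.71, 3.22 and 1.63 CPM of miR-206-3p, and the highest level in set B was 1.44 CPM. How many of all tested miRNAs lay apart between these sets was not counted. With TMM factors the sets overlapped, with 1.39 CPM in MC replicate 17 and 1.49 CPM in SS replicate 14. No SS or MS library fell in set C. With library set as a covariate the log2 fold change of miR-206-3p went from 1.42 to 0.65 in MC vs MS, from 0.58 to 0.38 in MC vs CS, from 0.35 to -0.12 in CS vs SS and from 0.89 to 0.27 with cocaine pooled. For miR-133a-3p the median was 35.5 CPM in set A, 35.1 CPM in set B and 39.3 CPM in set C, and the sets overlapped. Within set B its mean was 26.2 CPM in the 2 SS libraries and 50.9 CPM in the 3 MS libraries (35.1 CPM without MS replicate 4), while the MC library of that set had 59.7 CPM.

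The members were compared with each other over the 12 libraries on log2(CPM + 0.5), as 6 pairs. For miR-1a-3p and miR-133a-3p, Pearson's r was 0.529 (p = 0.0814, adjusted p = 0.489, permutation test) and Spearman's rho 0.559 (p = 0.0624, adjusted p = 0.375, permutation test). Without MC replicate 16 and MS replicate 4, the libraries farthest from the median of miR-1a-3p, r was 0.646, and over the 6 libraries of set B it was 0.819. Without MC replicate 16 alone, r was 0.786 and passed the threshold (adjusted p = 0.0229, permutation test). The 3 alternatives other than leaving out a library gave an adjusted p between 0.309 and 0.836. With TMM factors applied to the CPM of all 12 libraries, r was 0.0670. On that scale MC replicate 16 was at 58.4 CPM of miR-133a-3p and 0.382 CPM of miR-1a-3p. The value of r with TMM factors but without MC replicate 16 is not given, so scaling and that library are not told apart here. In MC replicate 16, miR-133a-3p had 153 counts for each count of miR-1a-3p, against 14.9 to 48.4 in the other libraries and a median of 19.3. The value of 153 rests on 2 counts of miR-1a-3p, below the floor of 3 counts, so it is not exact. For miR-1a-3p and miR-206-3p, r was -0.290 (p = 0.356, adjusted p = 0.611, permutation test), rho was -0.0769 (p = 0.817, adjusted p = 0.817), and r was 0.392 without MC replicate 16 and MS replicate 4 and 0.466 in set B. For miR-133a-3p and miR-206-3p, r was 0.150 (p = 0.628, adjusted p = 0.628, permutation test), rho 0.182 (p = 0.575, adjusted p = 0.691), and r was 0.347 without MS replicate 4 and MC replicate 20 and 0.465 in set B. The 3 pairs with miR-133b-3p had r of 0.265 with miR-1a-3p, 0.371 with miR-133a-3p and -0.176 with miR-206-3p, none past the threshold (adjusted p of 0.611, 0.611 and 0.628, permutation test). With 0 to 4 counts of miR-133b-3p per library these weak relations are no finding.

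Reads assigned to the miRNA precursor families were a further count for these hairpins. How reads were divided between mature and precursor entries is not given in the sources used here. The family counts may therefore not be independent of the mature counts. The mir-133 family was counted 65, 56 and 68 times in SS replicates 12, 13 and 14 and 95, 69 and 53 times in CS replicates 8, 9 and 10. It was counted 112, 203 and 74 times in MS replicates 3, 4 and 23 and 69, 62 and 117 times in MC replicates 16, 17 and 20. MS replicate 4 was the highest by far, as for miR-133a-3p, and all groups overlapped. Over the 12 libraries r between miR-133a-3p and this family was 0.892 (p = 0.00021, adjusted p = 0.00042, permutation test over 4 pairs added after seeing the values) and rho 0.846 (p = 0.00083, adjusted p = 0.00166). It was 0.719 without MS replicate 4 and MC replicate 20 and 0.916 in set B. The mir-1 family behaved differently. Its counts of 164, 246 and 114 in SS replicates 12, 13 and 14, 130, 160 and 228 in CS replicates 8, 9 and 10, 189, 290 and 253 in MS replicates 3, 4 and 23 and 56, 186 and 273 in MC replicates 16, 17 and 20 exceeded those of miR-1a-3p in every library. For miR-1a-3p and this family r was 0.629 (p = 0.0316, adjusted p = 0.0316, permutation test) and rho 0.371 (p = 0.238, adjusted p = 0.238). Without MC replicate 16 and MS replicate 4 it was 0.0574, so this relation rested on those libraries, and it was 0.397 in set B.

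**Figure D2:**
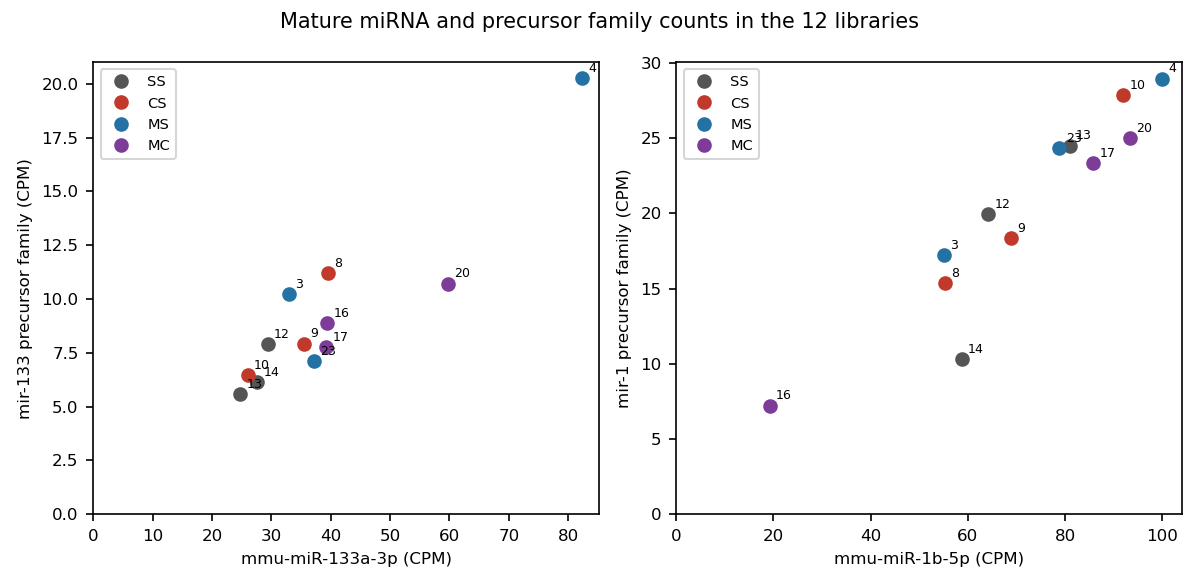
Level of miR-133a-3p against the mir-133 precursor family (left) and of miR-1b-5p against the mir-1 precursor family (right), both in CPM, with 1 point per library coloured by group and numbered by replicate. MS replicate 4 is highest in both panels, and MC replicate 16 is lowest for miR-1b-5p and the mir-1 family but lies among the other libraries for miR-133a-3p.

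Among the other arms of these hairpins, miR-1b-5p, an arm of the related Mir1b hairpin, was the one with many counts. It lay at 64.2, 81.0 and 58.7 CPM in SS replicates 12, 13 and 14 and at 55.2, 68.8 and 91.9 CPM in CS replicates 8, 9 and 10. It lay at 55.1, 99.99 and 78.8 CPM in MS replicates 3, 4 and 23 and at 19.2, 85.8 and 93.4 CPM in MC replicates 16, 17 and 20. All groups overlapped, and MC replicate 16 was the lowest library, as for miR-1a-3p. miR-1b-5p had between 26.0 and 102 counts for each count of miR-1a-3p (median 39.2), and its own 3p arm had at most 3 counts in any library. Its r with the mir-1 family was 0.914 (p = 1e-05, the smallest the permutations can give, adjusted p = 4e-05) with rho 0.937 (p = 4e-05, adjusted p = 0.00016), 0.832 without MC replicate 16 and MS replicate 4 and 0.842 in set B. Its r with miR-1a-3p was 0.748 (p = 0.00912, adjusted p = 0.0122, permutation test) with rho 0.497 (p = 0.105, adjusted p = 0.140), but 0.187 without the same 2 libraries and 0.607 in set B. The 5p arms of the miR-1a, miR-133a, miR-133b and miR-206 hairpins, and miR-133c, were not listed with a count in any library. edgeR called miR-1b-5p in 0 of the comparisons, and its adjusted p in MS vs SS was 0.987.

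The miRNAs hosted by myosin genes, known from heart and slow skeletal muscle, were taken as a further list. Whether the miR-499-5p counted in these cortex libraries came from muscle was not tested. miR-499-5p, from an intron of Myh7b, lay at 45.9, 49.4 and 45.9 CPM in SS replicates 12, 13 and 14 and at 45.9, 48.7 and 42.4 CPM in CS replicates 8, 9 and 10. It lay at 44.1, 43.9 and 38.3 CPM in MS replicates 3, 4 and 23 and at 8.88, 50.3 and 47.9 CPM in MC replicates 16, 17 and 20. Apart from MC replicate 16 these libraries were close together, and the SS libraries lay above the MS libraries, as for 32 of 780 tested miRNAs on CPM (4.10%) and 83 with TMM factors (10.6%), with 0% called. The high levels of miR-133a-3p in MS replicate 4 and MC replicate 20 had no counterpart in miR-499-5p, which stood at a log2 fold change of -0.41 in MS vs SS (standard error 0.37, adjusted p = 0.786 with edgeR). The number of miR-133a-3p counts per count of miR-499-5p was between 0.502 and 0.973 in 9 libraries, 1.25 in MC replicate 20, 1.88 in MS replicate 4 and 4.43 in MC replicate 16. The cardiac myosin miRNAs were at or near 0, with at most 5 counts of miR-208a-3p (Myh6) and at most 2 of miR-208b-3p (Myh7) in any library. Their sequences (RefSeq, GRCm38.p6, seed in capitals) are shown because these miRNAs come from related myosin genes and yet had very different levels.
mmu-miR-499-5p: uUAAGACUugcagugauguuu
mmu-miR-208a-3p: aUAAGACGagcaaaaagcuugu
mmu-miR-208b-3p: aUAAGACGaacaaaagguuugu
They lie at chr2:155622893-155622913 on the plus strand, and at chr14:54949072-54949093 and chr14:54975710-54975731 on the minus strand. miR-208a-3p and miR-208b-3p share their seed and differ at 3 positions counted from the 5′ end (G10A, A16G and C18U, with the base of miR-208a-3p first).

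Markers of other cell types that a dissected cortex can hold were summed in each library. The smooth muscle and mural cell miRNAs (miR-143 and miR-145a, 4 of 4 with a count, miR-143-3p the most abundant) summed to 3806 CPM in the median library, and 3154 to 4448 CPM in the libraries other than MC replicate 16, which had 818 CPM. The sum of this list was set by miR-143-3p. Other lists were not always led by the same miRNA, as miR-219a-2-3p gave 856 of the 961 CPM of the oligodendrocyte list in MC replicate 16. The 4 members together stood at 1.08 times their median in MC replicate 16, against 0.215 times for the smooth muscle and mural list, but neither list moved as 1 unit there. Among the members miR-1a-3p stood at 0.169 times its median, its lowest level, and miR-206-3p was at its highest, while in the other list miR-143-3p stood at 0.207 times, miR-145a-3p at 0.438 times and miR-145a-5p at 0.990 times its median. miR-145a-5p lay at 22.4, 25.8 and 26.5 CPM in SS replicates 12, 13 and 14, at 61.8, 40.2 and 23.3 CPM in CS replicates 8, 9 and 10, at 37.3, 58.4 and 45.4 CPM in MS replicates 3, 4 and 23 and at 39.4, 52.7 and 67.9 CPM in MC replicates 16, 17 and 20. The list sum was 3154, 3608 and 3294 CPM in these SS libraries, 4004, 4112 and 3427 CPM in CS, 4200, 4448 and 3184 CPM in MS and 818, 4281 and 4111 CPM in MC. In MC replicate 16 the red blood cell list (7 miRNAs, miR-451a the most abundant) stood at 0.203 times its median, the endothelial list at 0.389, the leukocyte list at 0.769, the neural list at 0.492, the oligodendrocyte list at 0.959 and the choroid plexus list at 0.357. The gut and kidney list stood at 0.220 times its median, the epithelial miR-200 list at 0.332, the skin list at 0.449 and the liver list at 2.42. Some of these sums hide members that differed in direction. In the oligodendrocyte list miR-219a-5p (73.5 CPM) and miR-338-3p (31.3 CPM) were at their lowest of the 12 libraries and miR-219a-2-3p (856 CPM) was at its highest, and in the red blood cell list miR-451a (382 CPM) and miR-144-3p were at their lowest and miR-486a-3p, miR-486b-5p and miR-486b-3p at their highest. Of the 43 tested miRNAs of all lists, 26 had their lowest level in this library, among them miR-1a-3p, against 307 of all 780 tested miRNAs (39.4%). The levels and ratios of the lists are on CPM. With TMM factors miR-145a-5p was at 58.4 CPM in MC replicate 16 and at 57.7 CPM in MC replicate 20. In MS replicate 4, where miR-133a-3p and miR-1a-3p were highest, the members stood at 2.22 times their median, the smooth muscle and mural list at 1.17 (miR-145a-5p at 1.47) and the endothelial list at 1.29. There the red blood cell list stood at 1.09 times its median, the myosin-hosted list at 0.962, the neural list at 0.595, the leukocyte list at 1.09 and the oligodendrocyte list at 0.853. The choroid plexus list stood at 0.998, the skin list at 1.40, the gut and kidney list at 1.29, the epithelial miR-200 list at 0.610 and the liver list at 3.03. In MS replicate 4 single miRNAs of the red blood cell list stood between 0.123 (miR-486a-5p) and 2.40 times their median (miR-144-3p). Those of the leukocyte list stood between 1.08 (miR-150-5p) and 2.06 times (miR-142a-5p), and the endothelial miR-126a-3p and miR-126a-5p at 1.29 and 1.75 times. In MC replicate 20, the next highest for both miRNAs on CPM, the members stood at 1.63 times their median, the smooth muscle and mural list at 1.08 (miR-145a-5p at 1.71, its highest), the neural list at 0.708 (miR-124-3p at 0.303) and the liver list at 2.03. Also there, the epithelial miR-200 list stood at 2.29 (miR-200c-3p at 14.8), the gut and kidney list at 1.71 and the leukocyte list at 1.32 (miR-223-3p at 32.3). The skin list stood at 1.40, the red blood cell list at 1.23, the choroid plexus list at 1.20, the endothelial and myosin-hosted lists at 1.04 and the oligodendrocyte list at 0.784. The liver list, led by miR-122-5p, was highest in MS replicate 3 at 2527 CPM (43.6 times its median), where the members stood at 0.888 times theirs. The part of these other cell types in the levels of the muscle miRNAs was not tested. In each comparison edgeR called 0 of these 43 miRNAs. In MS vs SS, where miR-133a-3p had an unadjusted p of 0.0828, 9 of the 40 tested list miRNAs other than the members had an unadjusted p under 0.05 (22.5%, against 9.62% of all 780). They were miR-145a-5p (log2 fold change 0.66, unadjusted p = 0.0397, adjusted p = 0.499), miR-126a-5p (0.81, unadjusted p = 0.0188, adjusted p = 0.397), miR-144-3p (1.71, unadjusted p = 0.0125, adjusted p = 0.336) and miR-122-5p (4.24, unadjusted p = 0.0105, adjusted p = 0.336), with miR-122-3p, miR-192-5p, miR-141-3p and miR-200c-3p also higher and miR-9-5p lower. The lists were chosen with earlier results of these data known, and arms of the same hairpin are not separate, so shares of list miRNAs are descriptive. In MS replicates 3, 4 and 23 miR-122-5p was at 2494, 173 and 69.4 CPM and miR-192-5p at 1013, 234 and 153 CPM. The sizes of these differences thus leaned on MS replicate 3. With methionine pooled there were 11 of 40 (27.5%, against 13.2% of all), of which 9 were higher, and miR-145a-5p had a log2 fold change of 0.59 (unadjusted p = 0.0131, adjusted p = 0.259). Of the same smooth muscle and mural list, miR-143-3p was at -0.20 and miR-145a-3p at 0.20 with methionine pooled. In MS vs SS they were at -0.032 and 0.28. In MC vs CS there were 6 of 40 (15%, against 7.44% of all), with miR-142a-5p, miR-223-3p, miR-122-5p and miR-486b-5p higher and miR-205-5p and miR-211-5p lower. In MC vs MS there were 4 of 40, all lower (10%, against 8.33%), with cocaine pooled 4, of which 3 were lower (10%, against 3.21%), in CS vs SS 4, all higher (10%, against 2.82%), and in the interaction 3, all lower (7.5%, against 4.36%). The log2 fold change of miR-124-3p was -1.50 in MC vs MS (unadjusted p = 0.0717, adjusted p = 0.576) and -1.35 in MC vs CS (unadjusted p = 0.1004, adjusted p = 0.577).

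**Figure D3:**
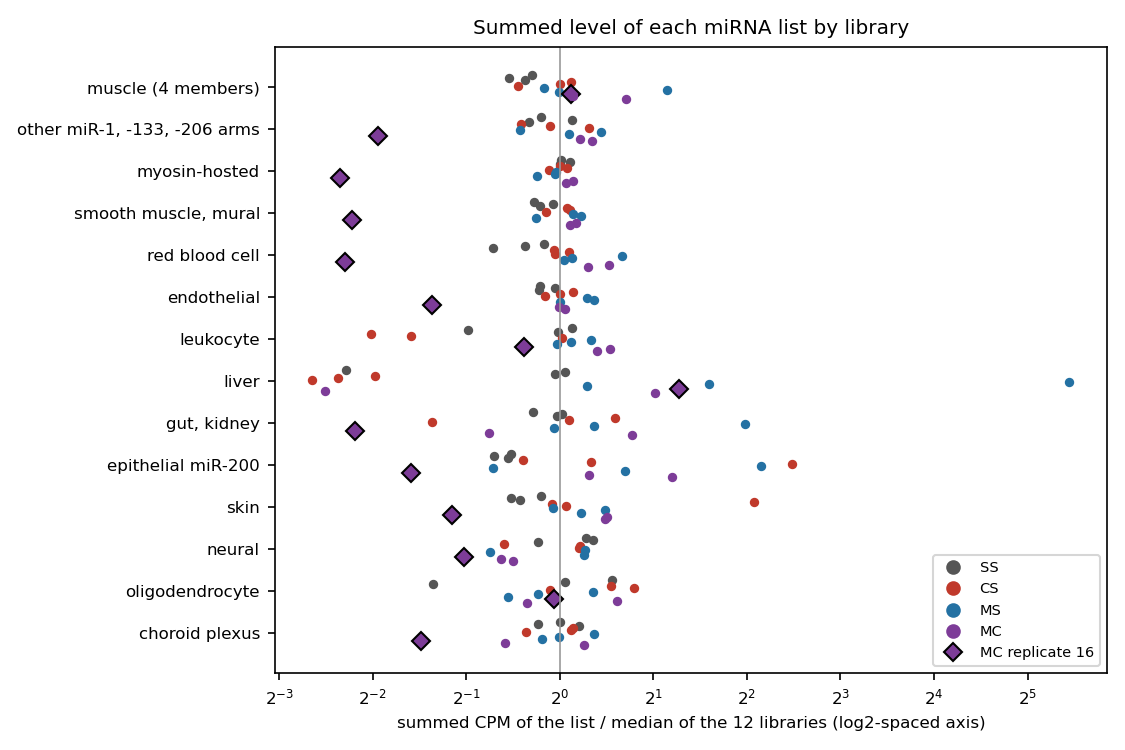
Summed CPM of each miRNA list in the 12 libraries, divided by the median of the 12 libraries, on a log2-spaced axis, with points coloured by group and MC replicate 16 drawn as diamonds. MC replicate 16 lies at 1.08 for the muscle miRNAs (mostly miR-133a-3p) but at 0.196 for the myosin-hosted list and 0.215 for the smooth muscle and mural list.

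The miRNAs most like each tested member over the 12 libraries were found among the other 777 tested miRNAs by Pearson's r of log2(CPM + 0.5), as a description. For miR-133a-3p these were miR-210-3p (r = 0.891), miR-431-3p (0.860) and miR-145a-5p (0.823), and without MC replicate 16 r was 0.895, 0.862 and 0.823. miR-145a-5p is an arm of the smooth muscle list. It had the same count as miR-133a-3p, 306, in MC replicate 16, whereas r of miR-133a-3p with the far more abundant miR-143-3p was 0.111 (rho 0.371), and 0.632 without MC replicate 16. For miR-1a-3p they were miR-3069-3p (0.906), miR-411-3p (0.895) and miR-434-5p (0.886), with 0.818, 0.801 and 0.783 without MC replicate 16. For miR-206-3p they were miR-5126 (0.858), miR-193b-5p (0.845) and miR-29b-1-5p (0.844), with 0.720, 0.727 and 0.692 without MC replicate 16. No miRNA was named for more than 1 member, and neither miR-1b-5p nor a myosin-hosted miRNA was among those named. The libraries share their depth and scaling across all miRNAs, so values of r between abundant miRNAs are not independent of each other.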

How the data were processed

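Small RNA reads of 12 libraries from mouse PFC were processed by the authors, who removed low-quality, adapter and short reads. The reads left were mapped with AASRA, and after miRNA, rRNA and tRNA matches were set aside the remainder was aligned with Bowtie for piRNAs. The submitters' processing notes name mm10, and how miRNA reads were counted is not given in the sources used here. The deposited count is a whole number of reads per small RNA, without normalization. The TPM deposited beside it is the count over the library total times 1000000, which matched within 0.005. CPM was computed here from the same counts and total.

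miRNAs with 5 or more counts in 3 or more libraries (780 of 1422) were tested with edgeR 4.0.16 in R 4.3.3, by the quasi-likelihood F-test. TMM factors came from the tested miRNAs, the library total served as library size, and the model had 1 coefficient for each group over all 12 libraries (8 residual degrees of freedom). p-values were adjusted by Benjamini-Hochberg over all 780 miRNAs. Calls needed a log2 fold change of 1 or more in either direction beside an adjusted p no higher than 0.05, and the interaction had no fold limit. Tests were two-sided, and correlations used permutation tests with 100000 resamples. The members, the lists and the precursor families were chosen with earlier results of these data known. Named miRNAs are the members, those of the lists, and for each tested member the 3 tested miRNAs with the highest r. Precursor families (pseudocount 0.5, average linkage on 1 minus Pearson's r) gave the library sets, as a tree cut into 3. No pair among 66 matched within sampling noise over 526 miRNAs (smallest chi-square per degree of freedom 155), so all libraries were kept. The labels name separate samples, and p-values measure the spread between libraries pooled from a pair of animals each.

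The alternatives were DESeq2 1.42.0, other TMM factors, filters, pseudocounts and sets of libraries, the counts of miR-133a-3p and miR-133b-3p added, library set as a covariate, and each library left out in turn. The edgeR fit was tested on simulated data. The other steps used scipy 1.17.1, numpy 2.4.6, pandas 2.3.3 and matplotlib 3.10.9 under Python 3.11.15, with GENCODE M21 on GRCm38 for loci.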

Additional observations from a re-analysis of the deposited data

How the results depend on the processing

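No tested muscle miRNA was called in any comparison under any alternative run, and 367 of 429 alternative values of their log2 fold changes kept their direction, with 62 reversed and a smallest adjusted p of 0.138 (DESeq2, miR-133a-3p with methionine pooled). The values that reversed were mostly close to 0, and the cause was not tested. With DESeq2 the interaction of miR-1a-3p was 0.031. With TMM factors from all small RNAs, MC vs MS was -0.027 for miR-1a-3p and -0.17 for miR-133a-3p, the interaction of miR-133a-3p was -0.22, methionine pooled was -0.030 for miR-206-3p and cocaine pooled was -0.055 for miR-133a-3p. Without TMM factors, MC vs MS was -0.14 and the interaction -0.44 for miR-133a-3p. The interaction of miR-133a-3p was also -0.053 with at least 10 counts in 3 libraries, -0.031 with no filter and -0.0033 with the counts of miR-133a-3p and miR-133b-3p added. With library set as a covariate, miR-206-3p was -0.12 in CS vs SS and -0.0077 with methionine pooled, and the interaction of miR-1a-3p was 0.13. Leaving out each library in turn gave, for miR-1a-3p, -0.11 to 0.071 in CS vs SS, -0.53 to 0.50 in MS vs SS, -0.22 to 0.62 in MC vs CS, -0.37 to 0.72 in MC vs MS, -0.39 to 0.70 in the interaction, -0.18 to 0.43 with methionine pooled and -0.17 to 0.37 with cocaine pooled. For miR-133a-3p it gave -0.066 to 0.078 in CS vs SS, 0.20 to 0.82 in MS vs SS, -0.17 to 0.44 in MC vs MS, -0.22 to 0.41 in the interaction and -0.069 to 0.24 with cocaine pooled. For miR-206-3p it gave 0.17 to 0.58 in CS vs SS, -0.70 to -0.24 in MS vs SS, -0.27 to 0.94 in MC vs CS, 0.55 to 1.78 in MC vs MS, 0.15 to 1.44 in the interaction, -0.35 to 0.22 with methionine pooled and 0.47 to 1.06 with cocaine pooled. On CPM 1 of the 3 tested members, miR-133a-3p, had MS and SS libraries that did not overlap (178 of 780 tested miRNAs, 22.8%), and with TMM factors 0 had (183 of 780, 23.5%), while miR-206-3p in MC vs MS kept its gap on both scales (65 of 780, 8.33%, and 67 of 780, 8.59%). The number of miRNAs called in MS vs SS, 0 with edgeR (75 at an unadjusted p under 0.05), was 9 with DESeq2, 3 with the 6 libraries of the comparison alone and 0 to 5 with a library left out, the 5 without MC replicate 16. With methionine pooled it was 0 (103 at an unadjusted p under 0.05), 7 with DESeq2, and 0 to 7 with a library left out, the 7 without MC replicate 16. The correlation of miR-1a-3p and miR-133a-3p was 0.295 to 0.786 with a library left out, that of miR-1a-3p and miR-206-3p -0.402 to 0.345, and that of miR-133b-3p and miR-206-3p -0.406 to 0.0929. With TMM factors applied to the CPM, r of miR-1a-3p was 0.396 with the mir-1 precursor family and 0.590 with miR-1b-5p, neither past the threshold. miR-133b-3p could be tested with no filter alone, where its smallest adjusted p was 0.945. No paired analysis was possible because the groups share no replicate numbers.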
